A study of Homo sapiens with 6 samples.

Results

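The transcription factor SRF, its coactivator MRTFA and 8 genes of the contractile cytoskeleton (ACTA2, TAGLN, CNN1, CNN2, MYL9, TPM1, TPM2 and CALD1) were followed in bulk RNA sequencing of MDA-MB-231 cells, an established human line from a breast carcinoma without hormone receptors. These 10 genes were chosen by symbol, and each was found under 1 identifier among the 62703 genes of the count tables. The knockdown cells carried hairpin RNA against RNF20 (shRNF20, 3 libraries). The comparison cells carried a control hairpin (shControl, 3 libraries). The RNF20 protein is a ubiquitin ligase for histone H2B. The labels give neither the number of hairpins nor whether cells were pools or clones, nor the time after knockdown.

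SRF binds DNA at the CArG box, an A- and T-rich core between CC and GG, and works with either of 2 kinds of partner. Myocardin-related factors such as MRTFA are held by free actin monomers and move to the nucleus when those monomers are used up in filaments, and with SRF they serve cytoskeletal genes. Ternary complex factors of the ETS family (ELK1, ELK3 and ELK4) respond to MAP kinases and with SRF serve immediate early genes. In smooth muscle and myofibroblasts the SRF programme builds the contractile apparatus, and in cancer cells of mesenchymal type it is known for its part in adhesion and invasion. The counts measured RNA, and neither the location of MRTF nor the binding of SRF was measured.

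Gene counts totalled 21988826 to 28265573 in shRNF20 libraries and 23786533 to 29685306 in shControl libraries. RNF20 mRNA stood at 14.1, 12.2 and 11.1 CPM (counts per 1e6 gene counts, TMM scaled) in shRNF20 cells and at 57.8, 58.5 and 58.0 CPM in shControl cells, so the targeted gene was low in every library labelled as knockdown. Mitochondrially encoded RNA took 4.91% to 6.22% of gene counts in shRNF20 and 0.934% to 1.38% in shControl. The shRNF20 libraries were closer to each other than the shControl libraries were. Between pairs of libraries the chi-square per gene was 2.04 to 6.84 in shRNF20 and 31.3 to 51.7 in shControl, where 1 is counting noise. Whether replicates came from separate cultures is not in the labels, and the p-values therefore rest on a spread between samples that may be technical. The line's usual markers were present, with AXL at 1281 to 1318 CPM in shRNF20 and 1307 to 1426 CPM in shControl. The progesterone receptor gene PGR stayed at or under 0.213 CPM in every library. Of 6 markers of the line KRT8 rose, VIM, CD44 and EGFR fell, and AXL and KRT18 did not pass. Of 6 genes known to be low or absent in it ESR1, ERBB2 and EPCAM rose, CDH1 fell, GATA3 did not pass and PGR was not tested. The share called was 66.7% of the markers and 80.0% of the 5 low genes tested, beside 58.4% of all genes tested. ESR1 entered the test through shRNF20 alone (1.27 to 1.68 CPM, against at most 0.197 CPM in shControl). ERBB2 was not scarce, at 139 ± 1.48 CPM in shRNF20 and 102 ± 9.07 CPM in shControl (SD, n = 3 each).

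Most of the contractile genes chosen here were higher in RNF20 knockdown cells, while SRF mRNA itself was not. Other contractile genes, reported below, went both ways. Of the 10 genes, 6 rose (TAGLN, TPM2, MYL9, TPM1, CNN2 and MRTFA), 1 fell (ACTA2) and 3 did not pass the test (SRF, CNN1 and CALD1). All 10 passed the filter on low counts. ACTA2 did so through its shControl libraries alone, at 27, 42 and 31 counts, against 5, 3 and 9 in shRNF20. The test was edgeR's quasi-likelihood test with Benjamini-Hochberg adjustment over 15797 genes at 0.05, under which 58.4% of all genes were called, 28.7% higher and 29.8% lower. The members' share called (70.0%) is therefore near the background. Their median log2 fold change was 0.51, beside -0.01 over all genes tested. The groups did not overlap for the 6 genes that rose, as for 33.5% of all genes tested upward, nor for ACTA2, as for 32.8% downward (66.3% in either direction). Only TAGLN rose and only ACTA2 fell by at least 2-fold, a size reached by 10.5% of genes tested upward and 11.7% downward.

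**Figure D1:**
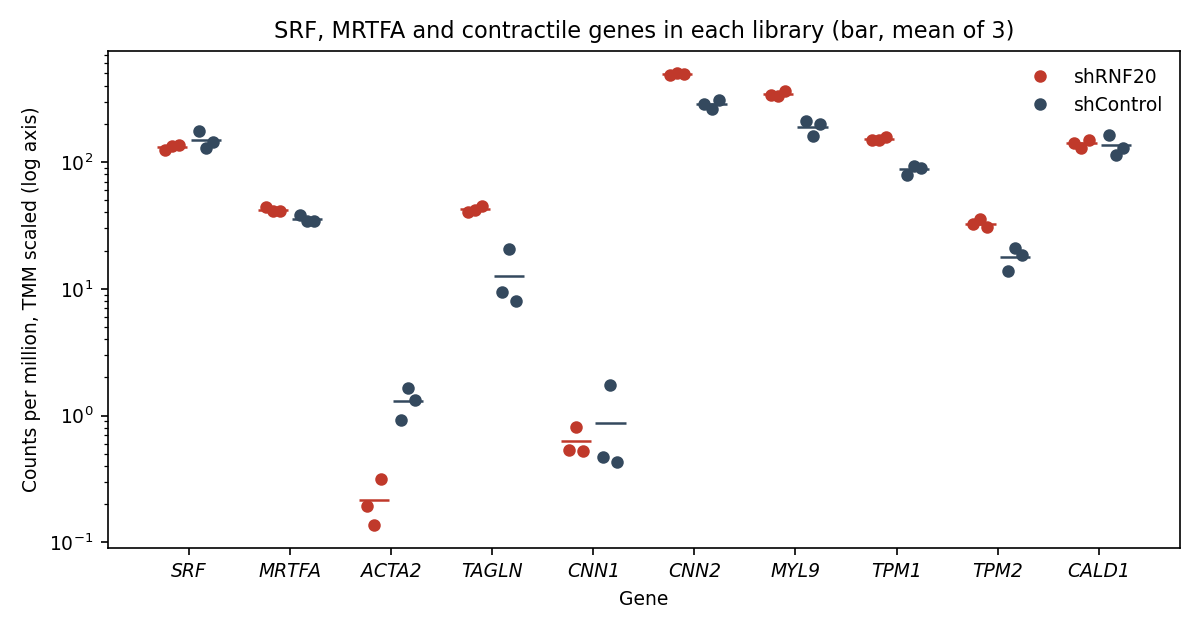
Level in CPM of the 10 genes in each library on a log axis, with shRNF20 (red) left of shControl (dark) and a bar at the mean of 3 libraries. TAGLN, CNN2, MYL9, TPM1, TPM2 and MRTFA lie higher in all shRNF20 libraries, ACTA2 lies lower, and SRF, CNN1 and CALD1 overlap.

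SRF (ENSG00000112658.8, GRCh38 chromosome 6, 43171299 to 43181507, plus strand) encodes the DNA-binding factor itself. It stood at 125, 133 and 137 CPM in shRNF20 and at 175, 130 and 143 CPM in shControl. The groups overlapped, with shControl replicate 1 the highest of the 6 libraries. The log2 fold change was -0.18 (SE 0.11, 95% interval -0.43 to 0.07, edgeR adjusted p = 0.190). Without shControl replicate 2 SRF passed as lower (-0.29, edgeR adjusted p = 0.0154).

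MRTFA (ENSG00000196588.21, chromosome 22, 40410281 to 40636702, minus strand) rose by a small amount. Its values were 43.8, 41.3 and 41.3 CPM in shRNF20 and 38.5, 34.2 and 34.2 CPM in shControl. The groups did not overlap, with shControl replicate 1 the closest to the shRNF20 libraries. The log2 fold change was 0.24 (SE 0.09, edgeR adjusted p = 0.0401), and it no longer passed under 8 of 16 alternatives, among them the fit with the replicate number as a block (0.24, edgeR adjusted p = 0.0650). Its paralog MRTFB, the other widely expressed coactivator of the family, rose more (log2 fold change 0.54, SE 0.12, edgeR adjusted p = 0.00523), with 31.5 ± 1.21 CPM in shRNF20 and 21.6 ± 3.32 CPM in shControl (SD, n = 3 each). Myocardin itself (MYOCD), the muscle-restricted relative, had 1 count in 1 shRNF20 library and none in the other 5 libraries.

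The members' windows with a CArG box, and that of ACTA2 with a pair of CArG-like matches, are shown because these genes differed in their calls. Windows run from 250 bases before to 50 after a gene start (RefSeq, GRCh38.p14) and were found for 8 of the 10 genes, but not for TAGLN and MYL9. The CArG box and a CArG-like form with 1 G or C in its core were searched. Each form is its own reverse complement as a class, so both strands were covered, and the forms cannot overlap at 1 position. Capitals mark the matches. SRF (chr6:43171019-43171318, plus strand) holds a pair of CArG boxes starting 30 and 10 bases before the gene start, and CNN2 (chr19:1026358-1026657, plus strand) holds 1 starting 89 bases before it. ACTA2 (chr10:88952724-88953023, minus strand) holds CArG-like matches 121 and 71 bases before 1 of its starts.
SRF: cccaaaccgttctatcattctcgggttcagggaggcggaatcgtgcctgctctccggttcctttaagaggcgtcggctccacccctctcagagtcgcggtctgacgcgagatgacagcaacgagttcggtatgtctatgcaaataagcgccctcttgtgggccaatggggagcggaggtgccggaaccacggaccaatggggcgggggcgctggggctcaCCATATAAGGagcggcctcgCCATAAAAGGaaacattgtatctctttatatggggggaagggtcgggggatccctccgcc
CNN2: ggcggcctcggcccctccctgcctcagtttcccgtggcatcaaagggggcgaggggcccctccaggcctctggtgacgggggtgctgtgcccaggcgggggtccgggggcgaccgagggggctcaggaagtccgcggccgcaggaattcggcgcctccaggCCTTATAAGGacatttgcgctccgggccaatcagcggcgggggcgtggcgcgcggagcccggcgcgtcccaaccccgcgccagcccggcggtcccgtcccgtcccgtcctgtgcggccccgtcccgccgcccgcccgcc
ACTA2: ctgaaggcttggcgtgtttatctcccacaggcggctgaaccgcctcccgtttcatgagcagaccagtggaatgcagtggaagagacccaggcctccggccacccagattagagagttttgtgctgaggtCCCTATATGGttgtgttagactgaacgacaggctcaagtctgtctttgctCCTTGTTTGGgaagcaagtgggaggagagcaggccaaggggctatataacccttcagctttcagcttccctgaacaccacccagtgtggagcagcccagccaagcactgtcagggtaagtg

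A CArG box was found in 1.29% and a CArG-like match in 6.94% of 35116 promoter windows. The other members with windows (MRTFA, CNN1, TPM1, TPM2 and CALD1) held no CArG box there, and CALD1 held a CArG-like match at 1 of its 4 starts. Of 12 tested genes from the SRF lists with a box in a window, CNN2 and ACTG1 rose, FHL1, FLNA and TGFB1I1 fell, and 7 did not pass. Of 29 such genes with a window but no box, 10 rose, 8 fell and 11 did not pass. Over all genes tested 28.7% rose and 29.8% fell. Genes without a window, among them TAGLN, MYL9, CCN1 and IER3, are in neither count. Outside these lists ACTG2, with 2 boxes and under 1 CPM in every library, rose and MYLK, with 1 box, fell. Any part of the box in these calls was not tested. The boxes are letter matches in a short window, not measured binding sites. Boxes of a pair of these genes are shown with 10 bases on each side because their genes went different ways: ACTG1 (chr17:81512874-81512903, minus strand) rose, while FLNA (chrX:154374709-154374738, minus strand) fell.
ACTG1: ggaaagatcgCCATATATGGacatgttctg
FLNA: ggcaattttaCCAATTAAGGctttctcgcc

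**Figure D2:**
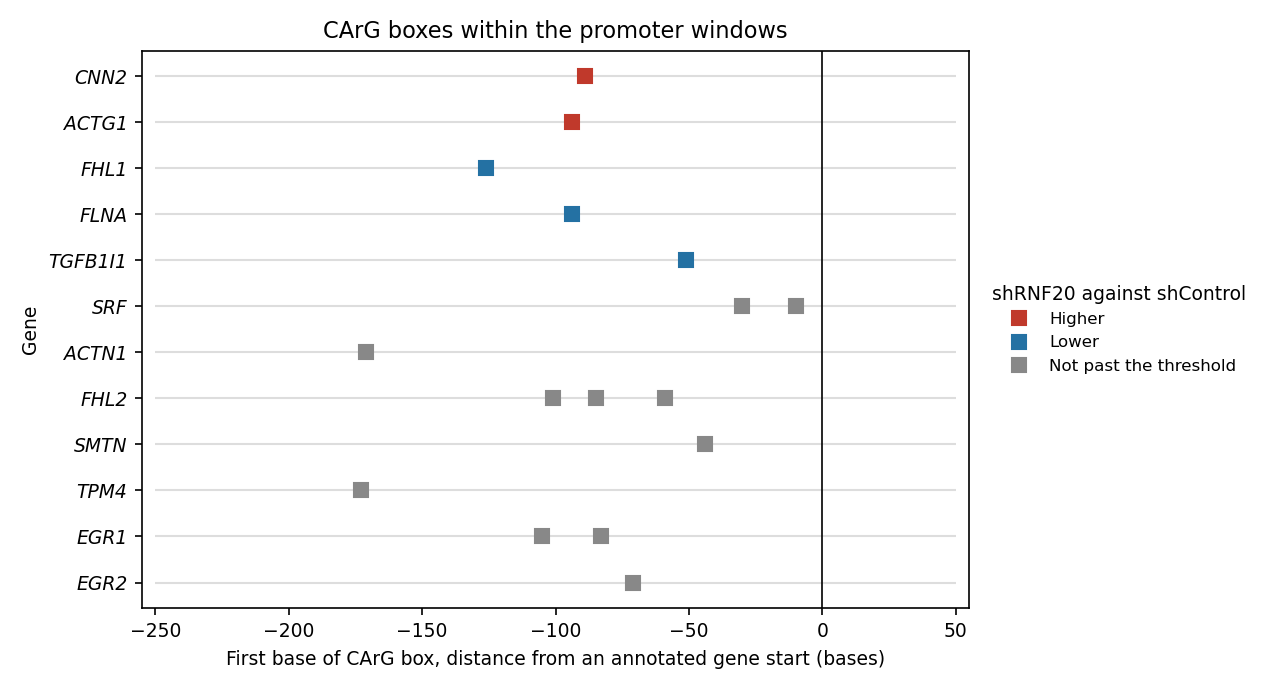
Position of the first base of each CArG box relative to an annotated gene start (bases, one grey line per gene from 250 before to 50 after), coloured by the gene's call in shRNF20 against shControl. The box stands 89 bases before the start of CNN2 and 94 before that of ACTG1, which rose, and likewise 94 before the start of FLNA, which fell; a gene with several starts can show 1 box at several distances.

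TAGLN, CNN2 and their paralogs bind actin filaments and carry a calponin homology domain. TAGLN (transgelin or SM22, ENSG00000149591.17, chromosome 11, 117199321 to 117204782, plus strand), an early marker of smooth muscle, had the largest rise among the 10. It stood at 40.1, 41.9 and 45.1 CPM in shRNF20 and at 9.41, 20.6 and 8.01 CPM in shControl. All shRNF20 libraries lay above shControl, where replicate 2 was the highest. The fold change was 3.34 (log2 1.74, SE 0.31, edgeR adjusted p = 0.00147), and the log2 fold change was 2.26 without shControl replicate 2. The paralogs went the other way. TAGLN2, the form most abundant in this line, fell to 238 ± 9.16 CPM in shRNF20, against 377 ± 90.6 CPM in shControl (log2 fold change -0.66, SE 0.15, edgeR adjusted p = 0.00477). TAGLN3, a neuronal form, fell to 0.577 to 1.23 CPM in shRNF20, against 1.86 to 2.80 CPM in shControl (-1.50, SE 0.33, edgeR adjusted p = 0.00467).

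CNN2 (calponin 2, ENSG00000064666.15, chromosome 19, 1026581 to 1039068, plus strand) is a calponin of non-muscle cells and damps myosin ATPase activity on actin. It had 484, 501 and 498 CPM in shRNF20 and 289, 264 and 307 CPM in shControl. The groups were far apart relative to their spread, with a fold change of 1.72 (log2 0.79, SE 0.07, edgeR adjusted p = 6.08e-05). CNN1 (calponin 1, ENSG00000130176.8, chromosome 19, 11538717 to 11550323, plus strand), the smooth muscle calponin, was barely present at 0.539, 0.817 and 0.527 CPM in shRNF20 and 0.474, 1.74 and 0.426 CPM in shControl. Those values are 14, 18 and 15 counts in shRNF20 and 14, 44 and 10 counts in shControl. The log2 fold change of CNN1 was -0.49 (SE 0.57, 95% interval -1.79 to 0.80, edgeR adjusted p = 0.481), and it turned to 0.43 without shControl replicate 2. CNN3, the third calponin, did not pass (0.11, SE 0.10, edgeR adjusted p = 0.362).

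Tropomyosins lie along actin filaments and gate access of myosin. TPM1 (ENSG00000140416.24, chromosome 15, 63042632 to 63071915, plus strand) stood at 150, 151 and 159 CPM in shRNF20 and at 79.7, 92.9 and 89.5 CPM in shControl. TPM2 (ENSG00000198467.16, chromosome 9, 35681992 to 35690121, minus strand) stood at 32.4, 35.3 and 30.5 CPM in shRNF20 and at 13.7, 21.0 and 18.5 CPM in shControl. For both genes every shRNF20 library was above every shControl library. The log2 fold changes were 0.81 for TPM1 (SE 0.08, edgeR adjusted p = 6.93e-05) and 0.88 for TPM2 (SE 0.15, edgeR adjusted p = 0.00139). TPM3 and TPM4, the abundant cytoskeletal tropomyosins, did not pass (log2 fold changes 0.03 and -0.10, edgeR adjusted p = 0.821 and 0.243). The 95% intervals of their log2 fold changes ran from -0.21 to 0.28 for TPM3 and from -0.25 to 0.05 for TPM4. Counts per gene do not separate the splice forms of TPM1 or CALD1, which differ between muscle and other cells.

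The mix within each family changed with these shifts. Per length of exon union, TPM1 and TPM2 together made up 10.9% ± 0.32 of tropomyosin counts in shRNF20 and 6.19% ± 1.19 in shControl (SD, n = 3 each). CNN2 made up 57.9% ± 0.68 of calponin counts in shRNF20 and 46.4% ± 3.21 in shControl, and CNN3 made up 42.0% ± 0.69 in shRNF20 and 53.4% ± 3.24 in shControl. TAGLN made up 10.1% ± 0.20 of transgelin counts in shRNF20 and 2.19% ± 1.42 in shControl (1.38% without replicate 2). For TPM1 with TPM2, for CNN2 and for TAGLN the 3 shRNF20 shares lay above the 3 shControl shares. These genes had already been called higher, so the separation of their shares is no further support. The summed tropomyosin level per length differed little, at 203 ± 2.03 in shRNF20 and 199 ± 12.8 RPKM in shControl (counts per kilobase of exon per 1e6 counts). The summed calponin level was 234 ± 1.81 RPKM in shRNF20 and 170 ± 15.1 RPKM in shControl, and the summed transgelin level was 107 ± 4.39 RPKM in shRNF20 and 156 ± 35.5 RPKM in shControl.

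**Figure D3:**
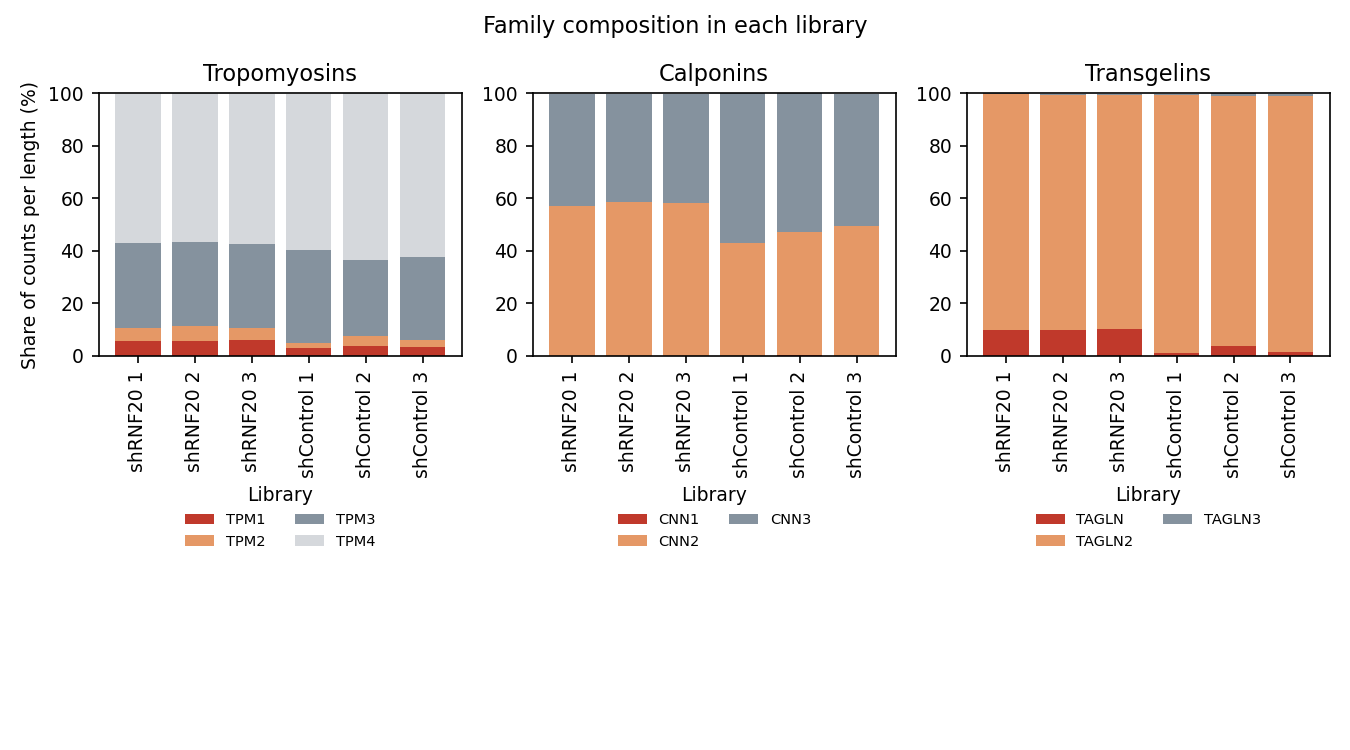
Share of each paralog in the counts per exon length of the tropomyosins, calponins and transgelins (%, stacked to 100), 1 bar per library with shRNF20 on the left of each panel. TPM1 with TPM2, CNN2 and TAGLN take larger shares in every shRNF20 library (means 10.9%, 57.9% and 10.1%, against 6.19%, 46.4% and 2.19% in shControl).

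A read that falls on exons of several genes was set aside as ambiguous, which among the members mainly touched TAGLN, TPM1, CNN2 and ACTA2. Each has a neighbour on the other strand, and 11.4%, 21.4%, 9.27% and 30.1% of their exon bases, in that order, are shared in GENCODE 29. Counting each strand apart and adding the results gave 1.84 to 2.02 times as many TAGLN counts in shRNF20 and 1.95 to 2.20 times in shControl. For TPM1 the ratio was 1.64 to 1.71 in shRNF20 and 1.71 to 1.77 in shControl. The summed columns can also hold reads of the neighbour, and its part was not tested, so levels per length and family shares of these genes depend on the counting. The log2 fold changes by that count were close (1.71 for TAGLN and 0.78 for TPM1). SRF, CNN1 and TPM2 had the same counts either way in every library.

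MYL9 (ENSG00000101335.10, chromosome 20, 36541484 to 36551447, plus strand) encodes a regulatory light chain of smooth muscle and non-muscle myosin II, whose phosphorylation turns the motor on. It stood at 339, 334 and 366 CPM in shRNF20 and at 210, 160 and 198 CPM in shControl. No library of 1 group reached the other, and the fold change was 1.83 (log2 0.87, SE 0.10, edgeR adjusted p = 2.00e-04). Other light chains also rose. The essential light chain MYL6 had a log2 fold change of 0.78 (SE 0.08) and the regulatory light chain MYL12B one of 0.66 (SE 0.07), with edgeR adjusted p-values of 1.00e-04 and 1.02e-04. MYL12A, a near copy of MYL12B, rose by 0.35 (SE 0.13, edgeR adjusted p = 0.0488) and lost the call under 9 of 16 alternatives. MYL6B fell (-0.48, SE 0.13, edgeR adjusted p = 0.0108). MYL6 and MYL6B share exon bases with each other and with neighbours on the other strand (13.9% and 12.3% of their exon bases). Reads there were set aside as ambiguous, and the part of this in their calls was not tested.

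The non-muscle heavy chains that these light chains serve went the opposite way. MYH9, the heavy chain of non-muscle myosin IIA, stood at 553, 571 and 591 CPM in shRNF20 and at 2377, 2089 and 2189 CPM in shControl. The groups were far apart, and MYH9 was 3.88-fold lower (log2 fold change -1.96, SE 0.08, edgeR adjusted p = 3.59e-06). MYH10, the heavy chain of myosin IIB, fell to 57.2 ± 0.78 CPM in shRNF20, against 155 ± 13.7 CPM in shControl (-1.43, SE 0.08, edgeR adjusted p = 9.30e-06). MYH11, the smooth muscle heavy chain, was at about 1 CPM or less and did not pass (0.51, SE 0.30, edgeR adjusted p = 0.180). The ratio of MYL9 to MYH9 per length was 1.96, 1.87 and 1.98 in shRNF20 and 0.283, 0.245 and 0.289 in shControl. MYLK, the kinase that phosphorylates the regulatory light chains, fell to 83.7, 80.9 and 78.6 CPM in shRNF20, against 210, 292 and 192 CPM in shControl (-1.51, SE 0.15, edgeR adjusted p = 7.01e-05). The falls of MYH9 and MYH10 and the rises of MYL9 and MYL6 passed under all 16 alternatives.

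**Figure D4:**
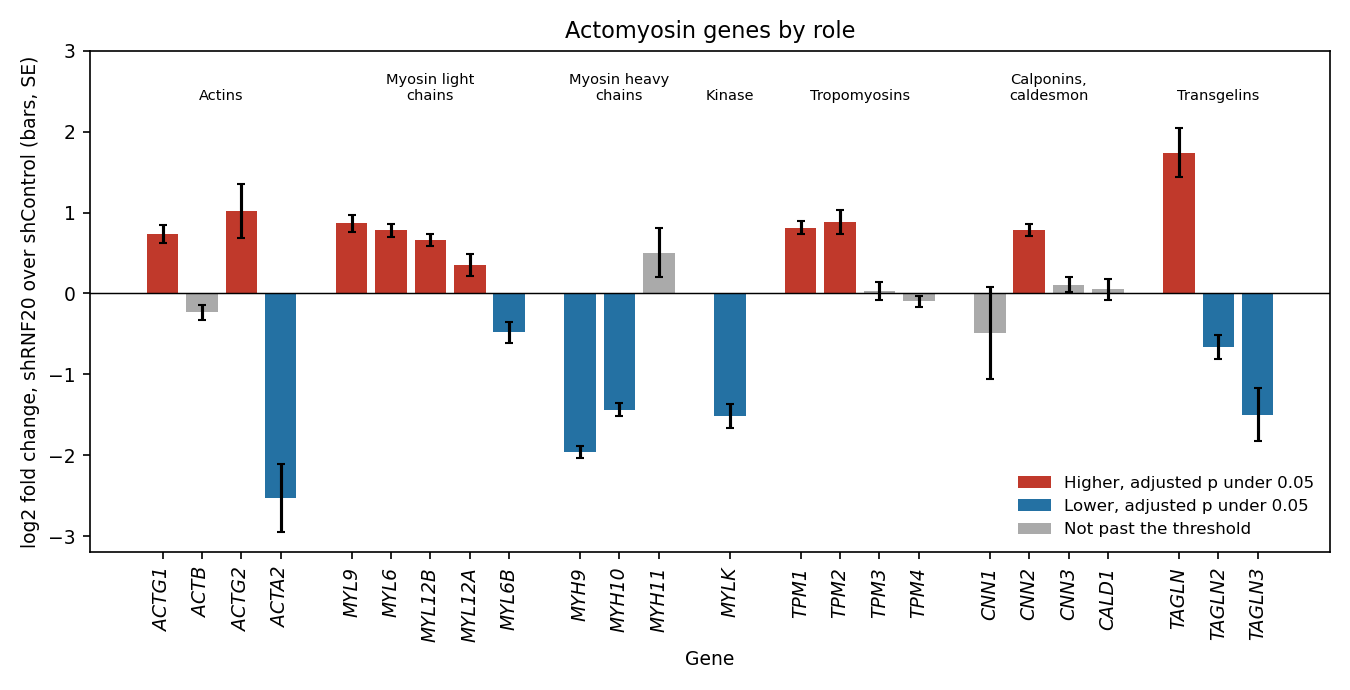
Log2 fold change, shRNF20 over shControl, of actomyosin genes grouped by role, with bars for the standard error and colours for the edgeR call at an adjusted p of 0.05. Light chains MYL9, MYL6, MYL12B and MYL12A were higher (0.35 to 0.87) while heavy chains MYH9 and MYH10 and the kinase MYLK were lower (-1.96, -1.43 and -1.51).

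ACTA2 (smooth muscle alpha-actin, ENSG00000107796.13, chromosome 10, 88935074 to 88991339, minus strand), the marker of myofibroblasts, was the member that fell, and it was scarce in both groups. It had 5, 3 and 9 counts in shRNF20 (0.192, 0.136 and 0.316 CPM) and 27, 42 and 31 counts in shControl (0.914, 1.66 and 1.32 CPM). The groups did not overlap, and ACTA2 was 5.77-fold lower (log2 fold change -2.53, SE 0.42, edgeR adjusted p = 0.00108). ACTA2 entered the test through shControl alone, the group where it was higher. Its exons overlap those of ACTA2-AS1 and FAS on the other strand, and the libraries do not keep strand. FAS, a death receptor gene named here for that overlap after its values were seen, also fell (-1.44, SE 0.14, edgeR adjusted p = 7.50e-05). Counting by strand gave 1.67 to 2.60 times the counts in shRNF20 and 2.90 to 4 times in shControl, and the log2 fold change was then -3.18. The part of FAS reads in that difference was not tested.

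The other actins went different ways. ACTG1, cytoplasmic gamma-actin, had 8263, 8374 and 8633 CPM in shRNF20 and 4827, 4359 and 6021 CPM in shControl (log2 fold change 0.73, SE 0.12, edgeR adjusted p = 8.08e-04). ACTB, cytoplasmic beta-actin, had 5136, 5188 and 5086 CPM in shRNF20 and 6613, 5285 and 6225 CPM in shControl, and did not pass (-0.23, SE 0.09, 95% interval -0.44 to -0.03, edgeR adjusted p = 0.0529). The groups did not overlap for ACTB, and it passed as lower under 5 of 16 alternatives, among them the fit without shControl replicate 2 (-0.34, edgeR adjusted p = 0.00140). Per length, ACTG1 was 1.89, 1.90 and 1.996 times ACTB in shRNF20 and 0.858, 0.970 and 1.14 times in shControl. ACTG2, the enteric smooth muscle actin, rose at under 1 CPM (1.02, SE 0.33, edgeR adjusted p = 0.0277), a call lost under 9 of 15 alternatives that tested it. It entered the test through its shRNF20 libraries (0.726 to 0.885 CPM, against 0.339 to 0.513 CPM in shControl), the group where it was higher. ACTA1 and ACTC1, the striated muscle actins, were too low to test. Actins share coding sequence, so reads that map to several of them are not in these counts.

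CALD1 (caldesmon, ENSG00000122786.20, chromosome 7, 134744252 to 134970728, plus strand) blocks myosin on actin until calcium signals release it. It stood at 142, 130 and 149 CPM in shRNF20 and at 164, 113 and 129 CPM in shControl. The shRNF20 values lay within the shControl range. The log2 fold change was 0.05 (SE 0.13, 95% interval -0.25 to 0.35, edgeR adjusted p = 0.756), and its sign turned without shControl replicate 2 (-0.085) and without shRNF20 replicate 3 (-0.0067).

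**Figure D5:**
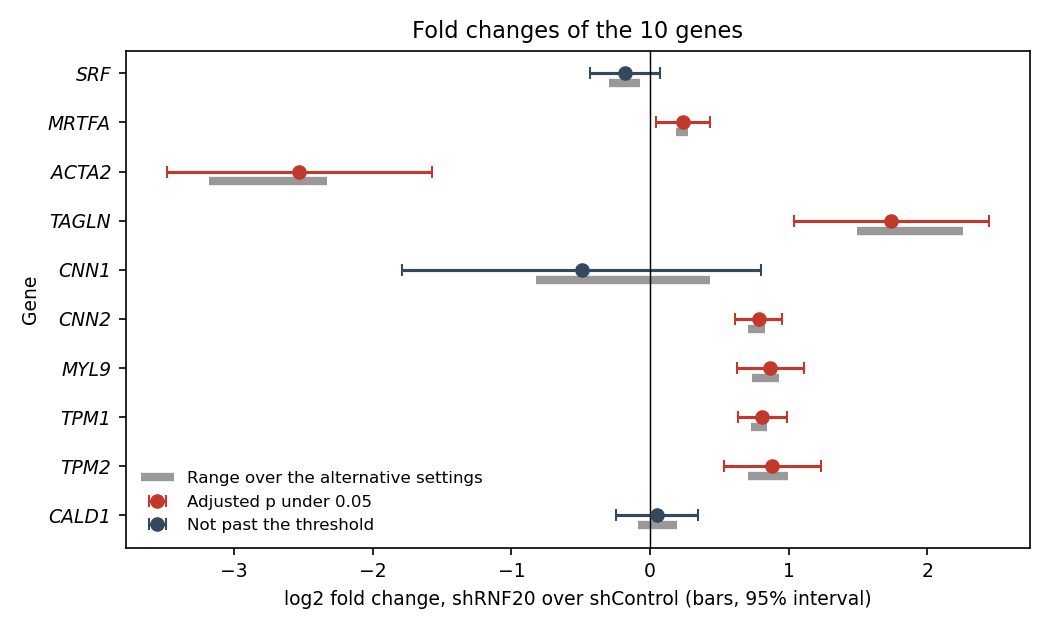
Log2 fold change of each of the 10 genes, shRNF20 over shControl, with the 95% interval of the edgeR fit (points and bars, red where the adjusted p was under 0.05) and the range over the alternative settings (grey). TAGLN (1.74), TPM2 (0.88), MYL9 (0.87), TPM1 (0.81) and CNN2 (0.79) lie above 0 throughout, ACTA2 (-2.53) lies below, and the ranges of CNN1 and CALD1 cross 0.

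Per length, CNN2 and MYL9 led the 10 genes in both groups, with SRF next. Length was the union of annotated exons, 12876 bases for TPM1, 4202 for SRF and 2821 for MYL9, so the order depends on it. In CPM, TPM1 (153) stood above SRF (132) in shRNF20 but not in shControl (87.4 and 149). The means in shRNF20 were 136 ± 2.56 RPKM for CNN2, 123 ± 6.08 for MYL9, 31.4 ± 1.49 for SRF, 14.2 ± 0.96 for CALD1 and 6.44 ± 0.22 for MRTFA. In shControl they were 78.7 ± 5.83 RPKM for CNN2, 67.2 ± 9.28 for MYL9, 35.5 ± 5.51 for SRF, 13.7 ± 2.67 for CALD1 and 5.46 ± 0.38 for MRTFA (SD, n = 3). Between CALD1 and MRTFA in shRNF20 stood TPM1 (11.9 ± 0.38), TAGLN (10.8 ± 0.65) and TPM2 (10.1 ± 0.75), of which TAGLN and TPM2 overlapped. In shControl TPM1 stood at 6.78 ± 0.53, TPM2 at 5.47 ± 1.14 and TAGLN at 3.24 ± 1.76 RPKM, and both TPM2 and TAGLN overlapped MRTFA. This order turns with the counting of shared exons. By summed strand columns TAGLN (21.0 ± 0.28 RPKM) and TPM1 (19.97 ± 0.22) lay above CALD1 in shRNF20, and in shControl TPM1 (11.9 ± 0.92) overlapped CALD1 and the mean of TAGLN (6.54 ± 3.24) was above that of MRTFA (5.47 ± 0.39). CNN1 and ACTA2 were last in both groups, at 0.217 and 0.0722 RPKM in shRNF20 and 0.304 and 0.436 RPKM in shControl.

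Other cytoskeletal and matrix targets of MRTF with SRF went both ways. Of 28 such genes 27 were tested, of which 7 rose, 8 fell and 12 were not called. The median log2 fold change was -0.09. The matricellular genes CCN1 (1.29) and CCN2 (0.92, SE 0.10, edgeR adjusted p = 1.16e-04) and MYL6 had the smallest p among the rises. CCN2 had 171 ± 1.54 CPM in shRNF20 and 90.5 ± 12.1 CPM in shControl. MYH9, MYH10 and the actin crosslinker FLNA (-0.51, SE 0.09, edgeR adjusted p = 0.00125) had the smallest p among the falls. Without shRNF20 replicate 1 or 3 the falls numbered 5, and with the shRNF20 libraries summed to 1 sample 2 remained past the threshold. The share called (55.6%) is near the background of all genes.

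Immediate early genes served by SRF with ternary complex factors were likewise split. Of 16, 13 were tested, of which 3 rose (CCN1, KLF2 at 0.71 and IER2 at 0.46), 3 fell and 7 did not pass, and the median was -0.06. The list holds SRF itself, which did not pass, and shares CCN1 with the MRTF-SRF targets above. The share called was 46.2%, beside 58.4% of all genes tested. The falls were the stress-response gene IER3 (-1.31, SE 0.11, edgeR adjusted p = 3.87e-05), the transcription factor KLF4 (-0.90, SE 0.14, edgeR adjusted p = 7.56e-04) and the AP-1 subunit FOSB (-0.77, SE 0.26, edgeR adjusted p = 0.0302). The classical members FOS and EGR1 did not pass (log2 fold changes -0.43 and 0.03). Without shControl replicate 2 the rises numbered 6.

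Most smooth muscle markers were at or near 0 in both groups, apart from SMTN (66.8 to 71.2 CPM in shRNF20 and 73.5 to 100 CPM in shControl) and SYNM (16.0 to 17.5 CPM in shRNF20 and 12.01 to 15.7 CPM in shControl). Of 10 markers, PLN and KCNMB1 had no count in any library, 6, those included, were under 1 CPM in every library, and 5 were tested, of which ACTG2 rose. Their summed level was 86.0 to 91.0 CPM in shRNF20 and 89.5 to 118 CPM in shControl, most of it SMTN and SYNM. Of 7 myoepithelial markers KRT5 was at 0, and KRT17, TP63, MYLK and DST fell among 5 tested, with sums of 325 to 381 CPM in shRNF20 and 673 to 860 CPM in shControl. TP63 was scarce and entered the test through its shControl libraries (0.596 to 1.42 CPM, against 0.192 to 0.492 CPM in shRNF20). Of 11 fibroblast and endothelial markers 6 were tested, of which PDGFRB, COL1A1, COL3A1 and LUM rose and PECAM1 fell. Their sums were 58.1 to 60.8 CPM in shRNF20 and 21.4 to 30.4 CPM in shControl, most of it PDGFRB and COL1A1. COL3A1 was scarce and entered the test through shRNF20 alone (1.12 to 1.36 CPM, against at most 0.316 CPM in shControl). The share called was 80.0% of tested myoepithelial and 83.3% of tested fibroblast and endothelial markers, beside 58.4% of all genes tested. Of the 5 tested smooth muscle markers only 1 was called, a smaller share than that of all genes tested. It was ACTG2, which entered the test through its shRNF20 libraries. PDGFRA, DCN, THY1, CDH5 and VWF of the fibroblast and endothelial list were under 1 CPM in every library. The part of these markers in the members' changes was not tested. The number of cells that express a marker and its RNA per cell cannot be told apart in bulk samples. Leukocyte markers summed to at most 0.953 CPM in shRNF20 and 1.54 CPM in shControl.

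By likeness of pattern over the 6 libraries, the genes closest to SRF were SLC5A3, PPM1G and AATF out of 9986 genes that reached a mean log2-CPM of 3. Their root mean square differences from SRF in centred log2-CPM were 0.0441, 0.0447 and 0.0452. Those closest to MRTFA were TMEM30A (0.0168), USP53 (0.0242) and CHSY1 (0.0245). The 6 libraries fall in 2 groups, so these distances share the group difference.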

How the data were processed

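RNA came from an RNeasy kit and a sequencing company prepared the libraries, per the labels' protocols. Per the submitters' processing notes, reads were checked with FastQC 0.12.1 and aligned to hg38 with STAR 2.7.11a. The authors deposited raw read counts per gene, without strand and for each strand, for each library. The annotation release is not given in the sources used here. Lines naming no gene (20.9% to 24.1% of reads recorded, ambiguous reads 10.7% to 11.2%) entered neither library sizes nor tests.

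Counts without strand were used, since the first strand held 50.1% to 50.2% of stranded counts. Symbols matched 62686 genes. Positions, exon lengths and overlaps came from GENCODE 29, which holds 58264 of them and can differ from the authors' release. Genes were kept by filterByExpr (minimum count 10), TMM scaled and tested with edgeR 4.0.16 in R 4.3.3 (quasi-likelihood, robust), shRNF20 against shControl, without a replicate block. Standard errors are the log2 fold change divided by the root of F. RPKM is CPM per kilobase of exon union.

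The members and lists were chosen with earlier results of these data known. A further planned list is not reported here. Genes named are the members, their paralogs, RNF20, the 3 genes of smallest p per list and direction (all where 5 or fewer passed) and the 3 genes most like SRF and MRTFA. MYH11, MYLK and other marker genes, FAS, FOS and EGR1 were named after their values were seen. The settings varied were scaling (RLE, upper quartile), the tool (DESeq2 1.42.0, or voom in limma 3.58.1), no filter, CPM of at least 1 in 3 libraries, a replicate block, summed strand columns, no mitochondrial genes, the shRNF20 libraries summed to 1 sample, and each library left out.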

Additional observations from a re-analysis of the deposited data

How the results depend on the processing

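TAGLN, CNN2, MYL9, TPM1 and TPM2 passed as higher under all 16 alternatives, and ACTA2 passed as lower under the 15 that tested it. With a CPM of at least 1 in 3 libraries ACTA2 and CNN1 were not tested, so 0 members fell. Signs reversed for CNN1 without shControl replicate 2 (0.43), for CALD1 without shControl replicate 2 (-0.085) and without shRNF20 replicate 3 (-0.0067), and for TPM3 without shControl replicate 2 (-0.11) and with no filter on low counts (-0.010). With 1 library left out, log2 fold changes ran from -0.82 to 0.43 for CNN1, from -0.085 to 0.19 for CALD1 and from -0.11 to 0.11 for TPM3. The cause was not tested. None of these 3 genes passed in the fit reported. With no filter 5 immediate early genes fell. The sum of the shRNF20 libraries left 1753 genes higher and 1619 lower over all genes and 2 MRTF-SRF targets lower, with fewer samples in the fit.

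With 1 library left out, 3617 to 4755 genes rose and 3906 to 5022 fell. Members numbered 5 to 6 higher and 1 to 2 lower, MRTF-SRF targets 5 to 8 higher and 5 to 11 lower and immediate early genes 3 to 6 higher and 2 to 4 lower.

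Without division by length CNN2 made up 63.9% of calponin counts in shRNF20 and 52.6% in shControl, and TAGLN 15.1% of transgelin counts in shRNF20. By summed strand columns TPM1 and TPM2 made up 12.8% of tropomyosin counts in shRNF20 and 7.55% in shControl, CNN2 62.8% and 51.2%, and TAGLN 17.9% and 4.31%, in the same order of groups. With 1 library left out, an alternative chosen after seeing the data, these 3 shares ran from 10.67% to 10.98%, 57.6% to 58.3% and 9.99% to 10.2% in shRNF20 and from 5.58% to 6.76%, 44.9% to 48.1% and 1.38% to 2.67% in shControl.

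Same-numbered libraries did not deviate together (correlations of -0.016, 0.035 and 0.028 over 15797 genes). The shRNF20 libraries differed little from each other (chi-square per gene 2.04 to 6.84), so these correlations cannot settle whether the numbers give a pairing. With the replicate number as a block 4418 genes rose and 4518 fell, and 5 members rose and 1 fell. ACTA2 had 3 to 42 counts and CNN1 10 to 44 counts a library. Levels per length by summed strand columns were added after seeing the data.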
